A study of Mus musculus with 21 samples.

Results

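The phagocyte NADPH oxidase is an enzyme complex of the membrane that passes electrons from NADPH to oxygen and so makes superoxide. Its transcripts were followed through 6 genes chosen by name, Cybb, Cyba, Ncf1, Ncf4, Rac2 and Hvcn1. All 6 were listed in both gene tables of the study, among 18079 genes in the table that sets ApoE knockout (KO) against wild-type (WT) brains and 13297 in the table that sets recombinant APOE (rAPOE) against phosphate-buffered saline (PBS). The protein made by Cybb (gp91phox, also called NOX2) is the catalytic subunit and sits in the membrane with the protein of Cyba (p22phox), which it needs to be stable. Ncf1 (p47phox) is the organiser that binds Cyba once it is phosphorylated, and Ncf4 (p40phox) binds a membrane phosphoinositide. The GTPase Rac, as Rac2 or Rac1, completes the complex, and Hvcn1 is a proton channel that lets out the protons left behind by the electron flow. Microglia, the resident macrophages of the brain, are a main site of this oxidase there.

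RNA came from cells labelled as microglia, taken from brains of mice 12 to 18 weeks old. The genotype table holds 4 KO libraries from uninjected females of the strain B6.129P2-Apoetm1Unc/J, in which Apoe was disrupted in every tissue by targeting, and 7 WT libraries from uninjected C57BL/6 females, numbered 1 to 4 and 6 to 8. The injection table holds 5 rAPOE and 5 PBS libraries, all from males of that same knockout strain, so neither of its groups has Apoe of its own. The left hemisphere was injected, and cells of both hemispheres were collected 16 h later. The labels give neither the hemisphere of a library nor whether the libraries of a group are separate mice, and a p-value therefore reflects spread between samples that may be technical in part. Each library was read as 3′ tags, about 1 tag a transcript, and values are the normalised counts that the authors deposited, each a read count over a factor of its library. The tables were normalised apart, so levels are not compared between them.

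The targeted gene, Apoe (chr7:19696109-19699188, minus strand, GRCm38), had 10.2, 0, 0 and 23.1 normalised counts in the KO libraries, against 13195 to 17163 in 6 WT libraries and 1011 in WT library 8 (log2 difference -11.25, SE 0.91, adjusted p = 1.58e-06 by limma). In the injection table Apoe was at 0 to 8.54 in rAPOE libraries and at 0 to 1.32 in PBS libraries. A tag at the 3′ end gives the level of the transcript and does not read the disrupted stretch. WT library 8 stood apart from the other WT libraries in Cybb and Cyba as well, so the genotype results below are given with and without it. Microglia markers summed to 140175 to 164016 normalised counts in KO libraries and 112953 to 132274 in WT libraries, and to 22969 to 41124 in rAPOE libraries and 40257 to 46910 in PBS libraries. The markers of sex did not match the labels everywhere. KO libraries had 0 reads of 4 Y-linked genes and 1980 to 3292 normalised counts of Xist, whereas WT libraries other than 8 had 11 to 36 such reads and Xist at 1127 to 1279. WT library 8 had 0 such reads and Xist at 3291. Among the libraries labelled male, rAPOE library 5 and PBS library 5 had 0 Y-linked reads and held Xist. Recovered reads came to 4247865 to 4969287 in KO libraries over 8117 to 10479 detected genes, and to 2016972 to 3054976 in WT libraries over 13592 to 15248 genes. The rAPOE libraries held 857059 to 1119059 reads and the PBS libraries 704225 to 1347501.

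Cybb lies on chromosome X (chrX:9435252-9487771, minus strand) and Cyba on chromosome 8 (chr8:122424776-122432930, minus strand). Ncf1 (chr5:134220053-134229625, minus strand) and Hvcn1 (chr5:122206804-122242297, plus strand) are on chromosome 5. Ncf4 (chr15:78244801-78262580, plus strand) and Rac2 (chr15:78559167-78572783, minus strand) are on chromosome 15. These positions are from GENCODE M21 on GRCm38. Cyba overlaps Gm20388, Hvcn1 overlaps Tctn1 and Ncf1 overlaps Gtf2ird2, each on the other strand, and since the strand setting of the counting is not given in the sources used here, reads of such partners cannot be told apart.

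The promoters of Cybb, Cyba and Ncf1, the 3 members of 6 with an entry in the RefSeq promoter table, are shown because Cybb passed the test in both comparisons, Ncf1 in the first and Cyba in neither. Cybb is known as a target of PU.1 (Spi1) and of the interferon regulatory factors Irf1 and Irf8 in myeloid cells, so the letters of such sites were searched for. Each window has 250 bases before and 50 after the RefSeq start on GRCm38.p6, written 5′ to 3′ on the gene's own strand. Capitals mark a match, on either strand, to GGAA and GAAA with 2 free bases between them (an ETS-IRF composite), to GAAA and GAAA with 2 free bases between them (an interferon-response type) or to GAGGAA (a PU.1 core). The windows are chrX:9469275-9469574 for Cybb, chr5:134229576-134229875 for Ncf1 and chr8:122432891-122433190 for Cyba, all on the minus strand. The RefSeq start of Cybb lies inside the longer GENCODE span given above.
Cybb: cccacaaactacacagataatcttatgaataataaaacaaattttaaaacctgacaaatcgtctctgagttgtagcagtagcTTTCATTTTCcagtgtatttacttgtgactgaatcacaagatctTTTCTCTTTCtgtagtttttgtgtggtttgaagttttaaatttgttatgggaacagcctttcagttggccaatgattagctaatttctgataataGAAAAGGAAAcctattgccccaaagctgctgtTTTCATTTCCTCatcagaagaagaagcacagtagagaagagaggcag
Ncf1: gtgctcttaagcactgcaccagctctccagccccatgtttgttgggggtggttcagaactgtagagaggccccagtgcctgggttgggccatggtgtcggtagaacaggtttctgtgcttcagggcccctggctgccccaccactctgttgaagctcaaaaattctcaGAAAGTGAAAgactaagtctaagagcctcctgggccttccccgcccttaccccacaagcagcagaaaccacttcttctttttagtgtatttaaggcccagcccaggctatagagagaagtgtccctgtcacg
Cyba: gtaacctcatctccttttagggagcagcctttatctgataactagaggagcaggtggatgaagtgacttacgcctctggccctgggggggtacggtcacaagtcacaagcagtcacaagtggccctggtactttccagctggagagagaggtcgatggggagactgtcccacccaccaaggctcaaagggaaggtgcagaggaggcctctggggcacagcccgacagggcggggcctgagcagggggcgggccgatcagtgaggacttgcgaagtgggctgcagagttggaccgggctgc
The Cybb window held 3 matches to the interferon-response type, whose first bases on the printed strand lie at -168, -124 and -29 from the start. It also held 1 match to the composite at +4, which overlaps a GAGGAA match at +10 on the same strand. The Ncf1 window held 1 match to the interferon-response type at -82, and the Cyba window held no match to these letters. Of 32851 promoters of the same length, 2.72% held the composite, 3.44% held the interferon-response type and 28.3% held GAGGAA. These are matches of letters and not sites of binding. Ncf4, Rac2 and Hvcn1 are not shown.

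The first comparison asks what the lack of ApoE does to microglial RNA. Of the 6 members, 1 fell and 1 rose in KO libraries by limma, at a Benjamini-Hochberg adjusted p under 0.05 over 10401 genes. Differences are given as log2(normalised count + 1) with the standard error (SE) of that fit. Over all genes tested, 19.8% fell and 5.14% rose. Cybb was lower in KO libraries, Ncf1 was higher, and the other members did not pass. The median log2 difference of the 6 members was 0.33, against -0.45 over all genes, and edgeR's quasi-likelihood test on the recovered reads also called 1 member in each direction, where 11.1% of genes fell and 4.79% rose. Without WT library 8, 1 member fell and 2 rose, where 23% and 7.64% of all genes did.

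The catalytic subunit Cybb had 44.3, 42.3, 151 and 95.8 normalised counts in KO libraries 1 to 4, and in WT libraries it had 657, 804, 751, 629, 586, 654 and, in library 8, 18.1. Every KO library lay under every WT library but library 8, which lay under all of them. The 18.1 in WT library 8 rests on 10 reads, and the KO values on 78 to 350. Cybb averaged 83.4 ± 51.6 in KO libraries and 585 ± 261 in WT libraries (SD, n = 4 and 7), a log2 difference of -2.47 (SE 0.84, adjusted p = 0.0456 by limma). Without WT library 8 the WT mean was 680 ± 81.4, so that Cybb was 8.15-fold lower in KO libraries (log2 difference -3.21, SE 0.31, adjusted p = 5.12e-06 by limma). The groups then did not overlap, as held, with KO libraries lower, for 18.1% of all genes tested. The libraries left also differed fully in 2 kinds of marker. KO libraries had 0 Y-linked reads and these WT libraries 11 to 36. Monocyte markers, described below, summed to 53.6 to 450 in KO libraries and 2508 to 2854 in these WT libraries. In every fit without WT library 8, genotype cannot be told apart from these markers. The call of Cybb was close to the threshold with library 8 in. It was lost when any of KO libraries 1, 2 and 4 or of the other 6 WT libraries was left out (adjusted p up to 0.110 by limma).

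Cyba, the membrane partner that holds Cybb stable, had 998, 1314, 1092 and 1337 normalised counts in KO libraries, against 412 to 996 (median 910) in WT libraries, of which library 8 was the lowest and the next lowest had 799. All KO libraries lay above all WT libraries, by a narrow margin, as did 3.67% of genes. The means were 1185 ± 167 in KO libraries and 840 ± 198 in WT libraries, and the difference of 0.53 on the log2 scale (SE 0.21) did not pass (adjusted p = 0.0840 by limma). Without WT library 8 it was smaller and passed (0.37, adjusted p = 0.0128 by limma), with the KO libraries still above all others, as for 5.89% of genes. Cybb and Cyba thus had differences of opposite sign.

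Of the cytosolic subunits, Ncf1, the organiser, had 1032, 1107, 587 and 1058 normalised counts in KO libraries and 560 to 724 (median 666) in WT libraries. KO library 3 lay within the WT range and the other KO libraries above it. Ncf1 averaged 946 ± 241 in KO libraries and 634 ± 63.5 in WT libraries, a rise of 0.54 on the log2 scale (SE 0.17, adjusted p = 0.0325 by limma). With each library scaled to equal microglia markers the difference was 0.10 and did not pass (adjusted p = 0.654 by limma), and leaving out KO library 1, 2 or 4 or any of WT libraries 1 to 4, 6 and 7 also ended the call (adjusted p up to 0.0961). Ncf4, the phosphoinositide-binding subunit, had 44.8, 163, 89.9 and 91.3 in KO libraries and 28.9 to 103 (median 72.1) in WT libraries. Its groups overlapped, with a difference of 0.35 (SE 0.40, adjusted p = 0.549 by limma).

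Rac2, the GTPase of blood cells, had 209, 205, 73.0 and 161 normalised counts in KO libraries and 140 to 209 (median 165) in WT libraries. KO library 3 was the lowest of all, the others lay in the WT range, and the difference of -0.21 (SE 0.27) did not pass (adjusted p = 0.603 by limma). Rac1, the GTPase found in most cells, averaged 1659 ± 159 in KO libraries and 1011 ± 189 in WT libraries and rose by 0.73 (SE 0.16, adjusted p = 0.00450 by limma). The proton channel Hvcn1 had 196, 218, 249 and 44.8 in KO libraries and 93.6 to 134 (median 122) in WT libraries. Here 3 KO libraries lay above all WT libraries and the fourth below them, so the groups overlapped (0.32, SE 0.38, adjusted p = 0.561 by limma). Without KO library 4 the difference of Hvcn1 was 0.89 and passed (adjusted p = 0.00662 by limma).

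**Figure D1:**
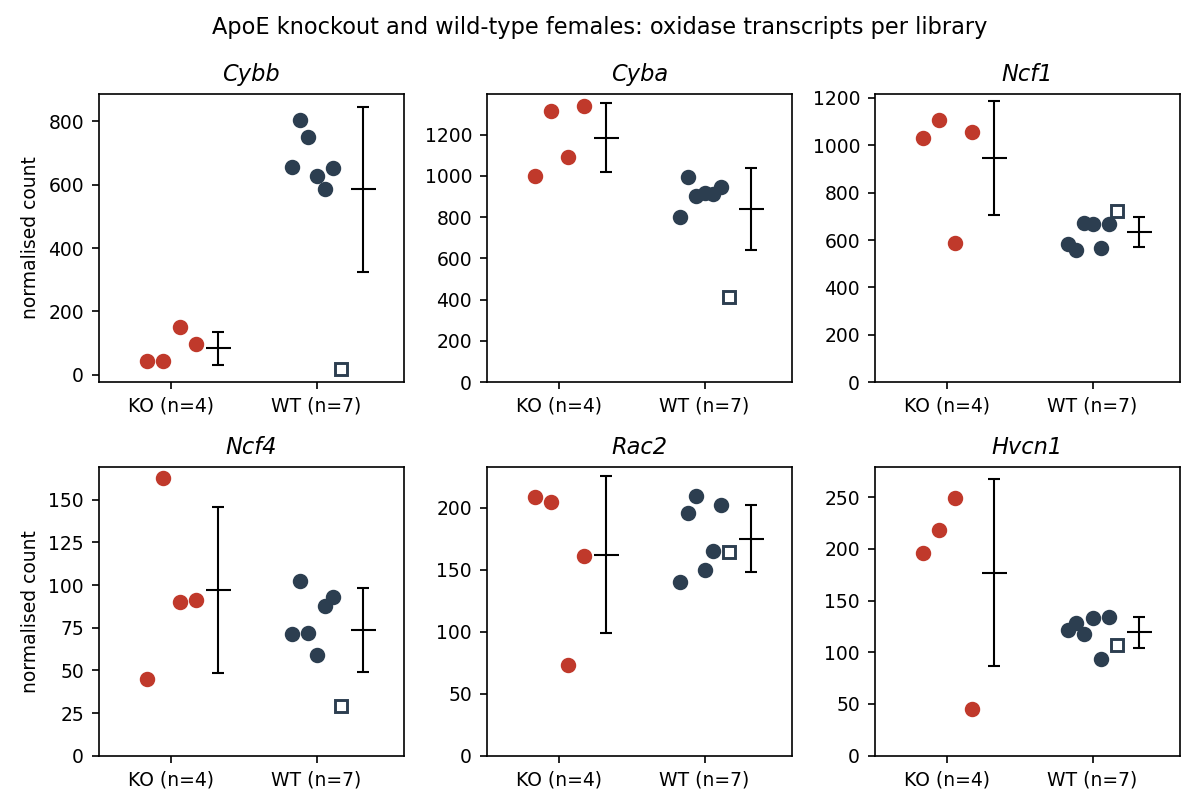
Normalised counts of the 6 oxidase genes in each KO library (red) and WT library (dark blue), with the mean and SD beside each group. The open square is WT library 8, and the 4 KO values of Cybb lie at 42.3 to 151, under the other WT libraries at 586 to 804.

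Of the partners of the oxidase, the 3 genes described here rose in KO libraries, and others are not reported. Besides Rac1 these were Rap1a, a small GTPase found with the membrane pair, at 393 ± 140 in KO libraries and 213 ± 28.5 in WT libraries (0.82, SE 0.21, adjusted p = 0.0115 by limma), and BC017643, at 617 ± 140 in KO libraries and 295 ± 53.7 in WT libraries (1.05, SE 0.19, adjusted p = 9.14e-04 by limma). The annotation used here does not name BC017643, so no role is given. It was listed only in this table, and the partner Cybc1 only in the injection table, and the sources used here do not say whether these are names of 1 gene. At an unadjusted p under 0.05 by limma, and by edgeR, 0 partners were lower. With libraries scaled to equal microglia markers, 1 partner rose and none fell. Counts of Rap1a are uncertain where tags are shared with its close relative Rap1b. Of the genes of other NADPH oxidases, Noxo1 and Duox2 were listed at 0 in all KO libraries and at up to 16.8 and 1.16 normalised counts in WT libraries, and Duoxa1 averaged 13.9 ± 15.1 in KO libraries and 3.47 ± 2.45 in WT libraries. All were too low to test.

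Markers of other cells moved with genotype, and their part in the results was not tested. The monocyte list is given beside Cybb because Cybb is also a gene of monocytes and neutrophils. Its 18 genes summed to 53.6 to 450 normalised counts in KO libraries, to 2508 to 2854 in WT libraries other than 8 and to 208 in WT library 8. In KO libraries Plac8, Vcan, S100a4, Ear2, Treml4 and Gda were at 0, and 9 of 15 tested genes of the list fell by limma, where 19.8% of all genes fell, and 6 fell by edgeR, where 11.1% did. By either tool 0 of the 15 rose, also at an unadjusted p under 0.05. Fn1 averaged 0.142 ± 0.284 in KO libraries and 866 ± 381 in WT libraries. The neutrophil list summed to 1792 to 6474 in KO libraries and 370 to 3065 in WT libraries, with library 8 the lowest. Elane, Prtn3, Ctsg and Padi4 of that list were at 0 in KO libraries, while S100a8 averaged 1990 ± 950 in KO libraries and 1031 ± 443 in WT libraries. The choroid plexus list, led by Ttr and Enpp2, summed to 440 to 887 in KO libraries and 23882 to 83809 in WT libraries. The border macrophage list summed to 687 to 809 in KO libraries and 906 to 1200 in WT libraries. Of its 2 most abundant genes, Pf4 averaged 2.98 ± 5.96 in KO libraries and 344 ± 140 in WT libraries. The other, Stab1, was higher in KO libraries (0.84, adjusted p = 0.0162 by limma). It averaged 547 ± 61.7 in KO libraries and 320 ± 136 in WT libraries. Of the microglia list, 9 of 19 genes rose in KO libraries and 1 fell, where 5.14% of all genes rose and 19.8% fell, and without WT library 8 13 rose and 1 fell, where 7.64% rose and 23% fell. In bulk RNA of this kind, fewer cells of a type and less RNA per cell cannot be told apart.

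The second comparison asks what ApoE protein does in a brain that lacks it. Of the 6 members, 1 rose after rAPOE and none fell (0 of 6), where 0.368% of 7066 genes rose and 0.113% fell. The riser was Cybb. At an unadjusted p under 0.05 by limma, 2 members were higher and 0 lower, where 5.22% of all genes were higher and 5.99% lower. The quasi-likelihood test of edgeR also called 1 member higher and 0 lower, where it called 0.326% of genes higher and 0.0142% lower. The median log2 difference of the 6 members was 0.53, against -0.01 over all genes.

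Cybb had 275, 161, 74.3, 211 and 361 normalised counts in rAPOE libraries 1 to 5, against 21.5, 0, 9.60, 18.4 and 23.2 in PBS libraries 1 to 5. Every rAPOE library lay above every PBS library, as in 1.59% of all genes. These values rest on 74 to 465 reads in rAPOE libraries and on 0 to 36 reads in PBS libraries, where the 0 of PBS library 2 allows up to 3.79 normalised counts. The means were 217 ± 109 after rAPOE and 14.5 ± 9.67 after PBS (SD, n = 5 each), a 14.9-fold higher level after rAPOE (log2 difference 4.23, SE 0.73, adjusted p = 0.00605 by limma). By size of difference, counted from the highest, Cybb was number 8 of the 7066 genes. In both groups library 5, which held Xist, had the highest Cybb of its group. Without both libraries numbered 5, Cybb was at 180 ± 84.5 after rAPOE and 12.4 ± 9.68 after PBS, 14.6-fold higher after rAPOE (4.31, SE 0.84, adjusted p = 0.0232 by limma). It was then again the 1 member that rose, where 0.142% of genes rose and 0.0142% fell, and its groups did not overlap, as for 2.66% of genes.

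Cyba had 708, 511, 705, 420 and 281 normalised counts in rAPOE libraries and 577, 614, 506, 272 and 261 in PBS libraries. The groups overlapped across most of their range, and the difference of 0.25 (SE 0.30) did not pass (adjusted p = 0.811 by limma). Libraries 4 and 5 of both groups were the low ones. Ncf1 had 238, 213, 220, 251 and 255 in rAPOE libraries and 213, 314, 139, 250 and 273 in PBS libraries, with means of 235 ± 18.7 after rAPOE and 238 ± 66.1 after PBS (log2 difference 0.03, SE 0.27, adjusted p = 0.977 by limma). Its rAPOE values all lay within the PBS range.

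Rac2 and Ncf4 were higher on average after rAPOE, but did not pass over all genes. Rac2 had 131, 266, 151, 239 and 229 normalised counts in rAPOE libraries and 56.3, 174, 134, 115 and 109 in PBS libraries (0.82, SE 0.34, adjusted p = 0.371 by limma). Ncf4 had 86.0, 43.4, 85.3, 62.9 and 47.4 in rAPOE libraries and 8.27, 41.7, 62.4, 21.7 and 41.8 in PBS libraries (1.08, SE 0.55, adjusted p = 0.485 by limma). In both genes the groups overlapped. Hvcn1 had 8.25, 39.3, 23.1, 59.0 and 34.2 in rAPOE libraries and 59.6, 17.7, 33.6, 45.4 and 67.6 in PBS libraries (-0.54, SE 0.61, adjusted p = 0.792 by limma). Its groups overlapped over most of their range. Scaled to equal microglia markers, which moved the median of all genes to 0.69, Rac2 passed (1.57, adjusted p = 0.0262 by limma).

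**Figure D2:**
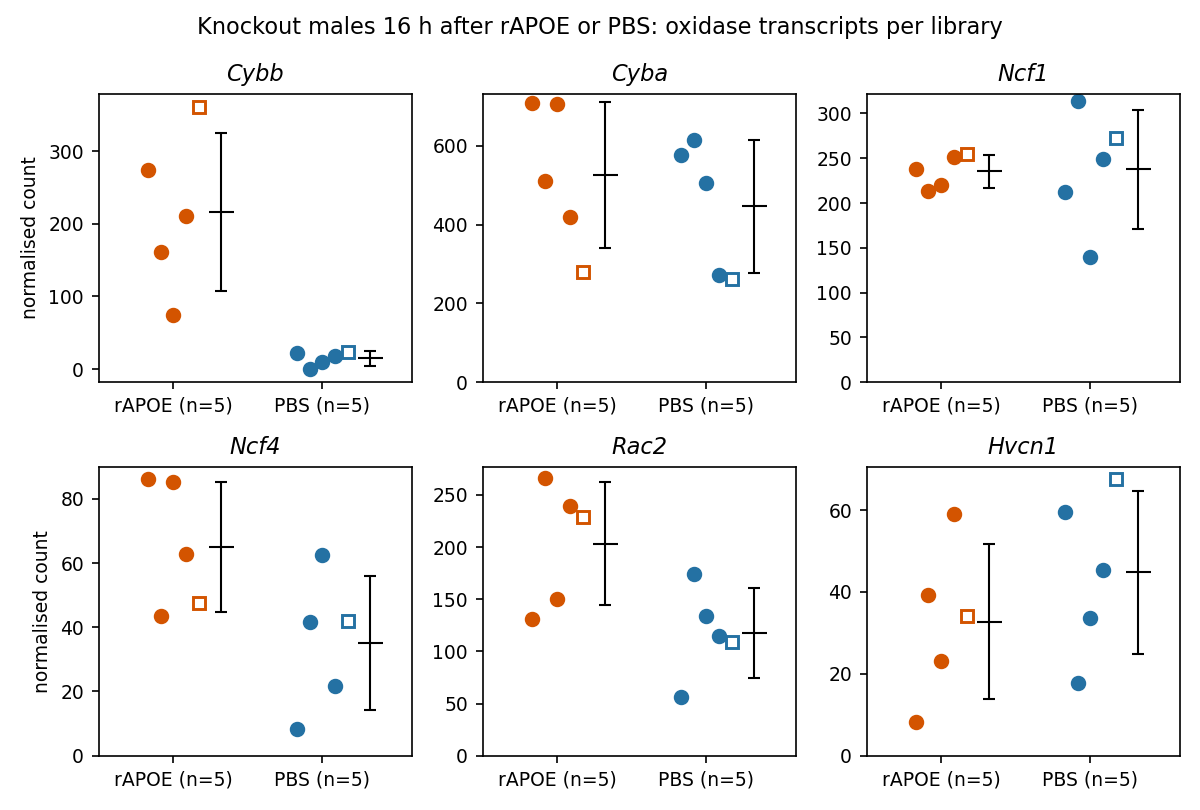
Normalised counts of the 6 oxidase genes in each rAPOE library (orange) and PBS library (blue) of knockout males, with the mean and SD beside each group. Open squares are the libraries numbered 5, and Cybb lies at 74.3 to 361 after rAPOE and at 0 to 23.2 after PBS.

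Of the partners described here, 0 of 3 passed after rAPOE by limma, and 0 by edgeR or at an unadjusted p under 0.05. Rac1 averaged 430 ± 189 after rAPOE and 322 ± 117 after PBS (0.39, adjusted p = 0.684 by limma), and Rap1a averaged 159 ± 68.3 after rAPOE and 126 ± 39.0 after PBS (0.30, adjusted p = 0.798 by limma). Cybc1, a chaperone of the membrane pair, averaged 149 ± 86.5 after rAPOE and 170 ± 50.3 after PBS (-0.36, adjusted p = 0.774 by limma). No gene of the other NADPH oxidases was in the table.

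Beside the rise of Cybb, the monocyte markers summed to 190 to 966 normalised counts in rAPOE libraries and 158 to 270 in PBS libraries, and their part in it was not tested. The largest part of that sum was Msr1, a scavenger receptor, at 441 ± 236 after rAPOE and 91.7 ± 33.1 after PBS (2.08, SE 0.40, adjusted p = 0.0130 by limma), the only gene of the 4 tested in that list to pass. The highest monocyte sum, 966, was in rAPOE library 5, against 190 to 622 in the other rAPOE libraries, and without both libraries numbered 5 none (0) of the 4 passed, with 1 higher and 0 lower at an unadjusted p under 0.05 by limma. Ly6c2 and Vcan were at 0 in all PBS libraries. The neutrophil markers summed to 6.02 to 165 in rAPOE libraries and 92.3 to 208 in PBS libraries, with Ngp at 0 in all rAPOE libraries and S100a8 at 29.5 ± 21.7 after rAPOE and 39.7 ± 30.1 after PBS. The border macrophage markers summed to 47.4 to 120 in rAPOE libraries and 80.9 to 176 in PBS libraries, and the choroid plexus markers to 0 to 522 in rAPOE libraries and 0.827 to 267 in PBS libraries. Of the microglia list, 4 of 19 genes fell after rAPOE (Selplg, P2ry12, Siglech and Gpr34, named after their values were seen) where 0.113% of all genes fell, and 0 rose, with Cx3cr1 at 4330 ± 830 after rAPOE and 5227 ± 613 after PBS. By edgeR 1 of these 19 fell, where 0.0142% of all genes did, and without both libraries numbered 5 none (0) fell by limma. At an unadjusted p under 0.05 by limma, 12 of the 19 were lower and 0 higher, where 5.99% of all genes were lower and 5.22% higher. Without those libraries 7 of the 19 were lower and 0 higher, where 335 of 7018 genes were lower and 283 higher.

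The level of Cybb was also set against each other member within a library, a ratio that no library-wide scaling can change except through the 1 added to each value. This comparison was chosen after the values were seen. All 5 ratios share Cybb, whose own values separated KO libraries from WT libraries other than 8, and rAPOE from PBS libraries. Cyba also separated KO libraries from those WT libraries, in the other direction. The tests of the 5 ratios therefore largely restate the difference of Cybb and are not 5 separate results. Cybb per Cyba was 0.0444, 0.0322, 0.139 and 0.0716 in KO libraries 1 to 4, against 0.644 to 0.830 in 6 WT libraries and 0.0439 in WT library 8. Without library 8, all 5 ratios separated the groups, with mean log2 ratios lower in KO libraries, by differences of -2.99 (to Rac2) to -3.78 (to Ncf1), each at p = 0.00952, the smallest that the exact two-sided permutation test can give over 210 splits. With library 8, the differences were -3.01 to Cyba, -3.01 to Ncf1, -2.82 to Ncf4, -2.79 to Hvcn1 and -2.26 to Rac2, and none passed over the 5 ratios (adjusted exact permutation p from 0.0505 to 0.103).

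After rAPOE, Cybb per Cyba was 0.388, 0.316, 0.105, 0.503 and 1.29, against 0.0373, 0, 0.019, 0.0678 and 0.0889 after PBS. Cybb per Ncf1 was 1.15, 0.758, 0.338, 0.840 and 1.42 after rAPOE, against 0.101, 0, 0.069, 0.0739 and 0.0849 after PBS. No rAPOE library lay in the PBS range in either ratio. The mean log2 ratio was higher after rAPOE by 3.98 to Cyba, 4.19 to Ncf1, 3.41 to Rac2 and 4.77 to Hvcn1, each at an exact two-sided permutation p of 0.00794, the smallest that 252 splits can give (0.00992 adjusted over the 5 ratios). The ratio to Ncf4 was higher by 3.15 (exact permutation p = 0.0159). Without both libraries numbered 5, the exact permutation p was 0.0286 for 4 of the ratios, the smallest that 70 splits can give, and 0.0571 for the ratio to Ncf4.

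**Figure D3:**
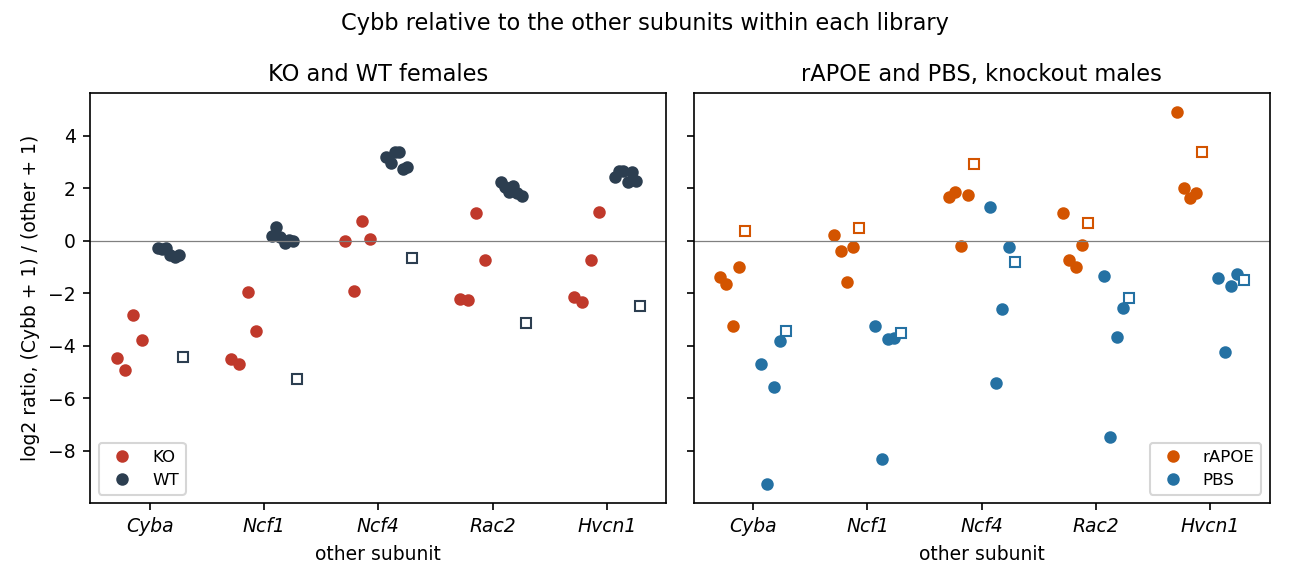
The log2 ratio of Cybb to each other subunit in each library, each value with 1 added, for KO and WT libraries (left) and rAPOE and PBS libraries (right). Open squares are WT library 8 and the libraries numbered 5, and on the right the rAPOE libraries lie above the PBS libraries for Cyba, Ncf1, Rac2 and Hvcn1.

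The genes whose pattern was most like that of Cybb were taken as those with the smallest mean absolute difference of log2 values, each gene centred on its own mean, among tested genes whose mean was 50 or more. In the genotype table, with 11 libraries, these were Lyz2, lysozyme of myeloid cells (0.31), Ank, a transporter of pyrophosphate (0.38), and Hbb-bs, a haemoglobin chain (0.39). Lyz2 had 587 to 756 normalised counts in KO libraries and 164 to 5545 in WT libraries, with 164 in WT library 8, and fell by 2.23 on the log2 scale in KO libraries (adjusted p = 0.0462 by limma). Ank fell by 3.23 (adjusted p = 0.00266 by limma), while Hbb-bs did not pass (-1.65, adjusted p = 0.140 by limma). Tags of Lyz2 and Hbb-bs may be shared with close copies, so their counts are uncertain. Nearest to Cyba in that table were Adgre1 (0.089), Tubb5 (0.0986) and Ctsl (0.101), and Adgre1, the F4/80 antigen of macrophages, averaged 482 in KO libraries and 319 in WT libraries (0.62, adjusted p = 0.0351 by limma).

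In the injection table, with 10 libraries, the nearest to Cybb were Dusp2, a phosphatase of MAP kinases (0.93), Cxcl10, an interferon-induced chemokine (0.93), and Cd72, a lectin-like receptor (0.93). Cxcl10 averaged 480 after rAPOE and 57.7 after PBS (2.91, SE 0.40, adjusted p = 4.28e-04 by limma), and Cd72 averaged 144 after rAPOE and 16.9 after PBS (2.97, SE 0.52, adjusted p = 0.00605 by limma). Dusp2, at 112 after rAPOE and 25.1 after PBS, did not pass (adjusted p = 0.149 by limma). The distances to Cybb are larger than in the genotype table. Nearest to Cyba were Tmem176b (0.19), Slc39a9 (0.19) and Rps21 (0.21), of which none passed.

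The genes that act on the oxidase were described through lists. Over all genes tested, 5.14% rose and 19.8% fell in KO libraries, and with libraries scaled to equal microglia markers 1.25% rose and 35.5% fell. At an unadjusted p under 0.05 by limma, 8.24% were higher and 28.2% lower. Of the 29 tested genes of oxidase activation, 5 rose and 2 fell in KO libraries, with a median difference of 0.18, and with that scaling 1 rose and 5 fell. The risers included Lyn, a kinase below Fc receptors (1804 ± 113 in KO libraries and 925 ± 144 in WT libraries, 0.97, adjusted p = 8.92e-05 by limma), Mapk14, the p38 kinase (257 ± 55.2 in KO libraries and 129 ± 33.0 in WT libraries, adjusted p = 0.00555 by limma), and Prkcd, a protein kinase C that phosphorylates Ncf1 (0.60, adjusted p = 0.0218 by limma). Akt2, of a kinase family that phosphorylates Ncf1, fell by 0.80 (adjusted p = 0.0269 by limma).

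Of 14 tested transcription factors linked to oxidase genes, 3 rose in KO libraries and none fell, where 5.14% of all genes rose and 19.8% fell. With the marker-based scaling, however, none rose and 3 fell, where 1.25% of all genes rose and 35.5% fell. Irf8, which acts on the Cybb promoter, averaged 2114 ± 333 in KO libraries and 1426 ± 108 in WT libraries (0.56, adjusted p = 0.00488 by limma), and Ikzf1 (0.68) and Cebpa (0.64) passed as well. Spi1, which encodes PU.1, had a difference of -0.32 (SE 0.15) and did not pass (named after its values were seen). At an unadjusted p under 0.05, 1 transcription factor was lower by limma and 1 by edgeR, where by adjusted p none (0) fell with either tool. Of 8 tested genes of ion and pH control, 3 rose in KO libraries, where 5.14% of all genes did. These were the potassium channel Kcnk13 (1.11), the ATP-gated channel P2rx7 (0.73) and the channel Trpm2 (0.67). The marker-based scaling gave 1 riser and 1 that fell, where 1.25% of all genes rose and 35.5% fell.

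Some of the 27 antioxidant genes encode enzymes that remove the products of the oxidase or their downstream oxidants, and others do not. Of all 27, 10 fell in KO libraries and none rose, where 19.8% of all genes fell and 5.14% rose. Their median difference was -0.72, against -0.45 over all genes. Sod3, the extracellular superoxide dismutase, was at 0 in all KO libraries and at 33.7 ± 15.9 in WT libraries (adjusted p = 5.20e-05 by limma). Nqo1 averaged 0.111 in KO libraries and 21.3 in WT libraries, Srxn1 averaged 6.23 in KO libraries and 57.7 in WT libraries, and Prdx5 averaged 182 in KO libraries and 490 in WT libraries. Nqo1 was at 0 in 3 KO libraries and Srxn1 in 2, whereas Prdx5 was at 0 in none. KO libraries had fewer detected genes than WT libraries, and the part of this in the falls of low genes was not tested. By edgeR's quasi-likelihood test on the reads, 5 of the 27 fell, where 11.1% of all genes did, and 0 rose by that test or at an unadjusted p under 0.05 by limma. Of 8 genes that supply NADPH, the malic enzyme Me1 fell (0.779 ± 1.56 in KO libraries and 52.7 ± 23.0 in WT libraries). Without WT library 8, 13 antioxidant genes fell and 1 rose, and 8 genes of activation rose and 5 fell, where 7.64% of all genes rose and 23% fell.

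After rAPOE only Sod2, the mitochondrial superoxide dismutase, passed in these lists. It averaged 208 ± 36.3 normalised counts after rAPOE and 41.6 ± 15.7 after PBS (2.37, SE 0.37, adjusted p = 0.00218 by limma), and its groups did not overlap. Of the 21 tested antioxidant genes, 5 were higher and 1 lower at an unadjusted p under 0.05 by limma, where 5.22% of all genes were higher and 5.99% lower. None of 25 genes of activation passed by limma or edgeR (0 by either), with 2 higher and 2 lower at an unadjusted p under 0.05 by limma, and 1 higher and 1 lower by edgeR. None of 14 transcription factors passed by limma or edgeR (0 by either), with 0 higher and 2 lower at an unadjusted p under 0.05 by limma, and 0 higher and 1 lower by edgeR. Of the 6 genes of NADPH supply and the 7 of ion and pH control, 0 passed by either tool, and 0 were at an unadjusted p under 0.05.

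**Figure D4:**
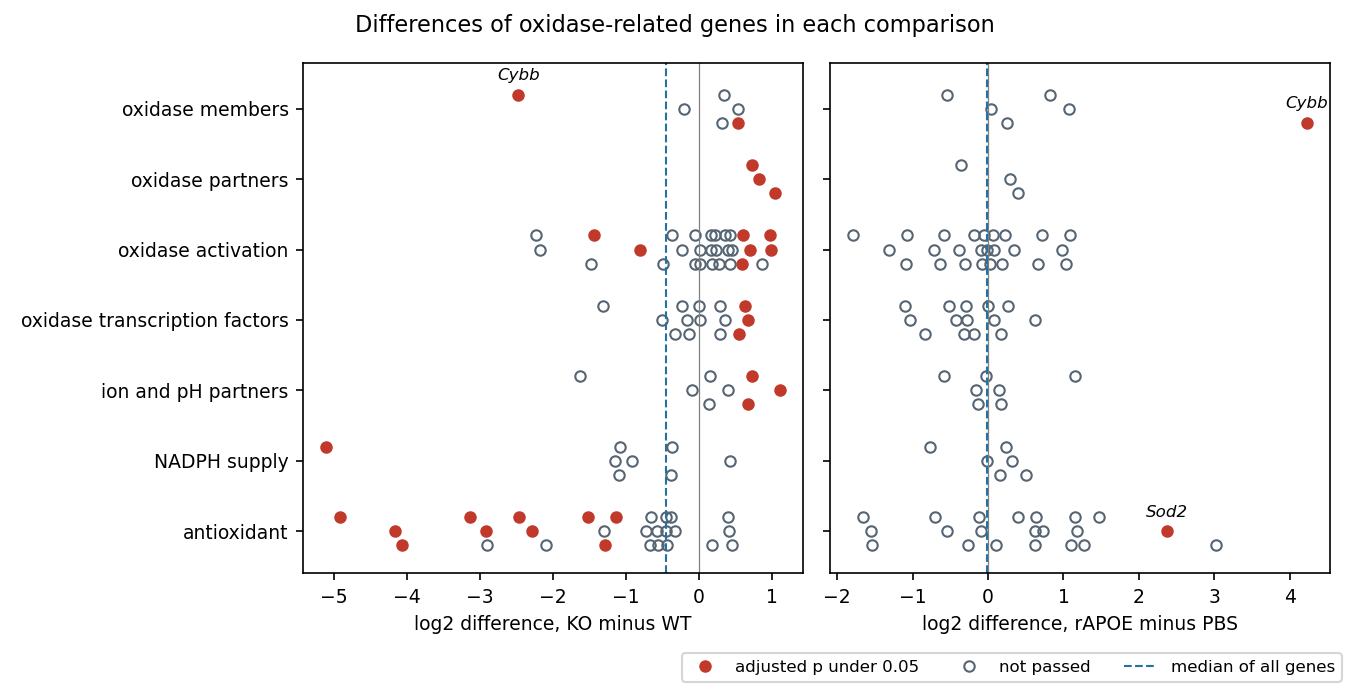
Log2 differences of the genes of each list, KO minus WT (left) and rAPOE minus PBS (right), with filled points for those that passed by limma and a dashed line at the median of all genes. Cybb lies at -2.47 on the left and 4.23 on the right, and with libraries scaled to equal microglia markers the transcription factor, activation and ion lists on the left lose risers and gain genes that fell.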

How the data were processed

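Microglial total RNA of 21 libraries was made into QuantSeq 3′ FWD libraries and read on an Illumina MiniSeq, per the labels' protocols. The submitters' processing notes name the tools DESeq2, HTSeq, R 3.2.3 and Picard 1.8.4 and the genome GRCm38.p3, without their roles. Aligner, annotation and strand setting: not given in the sources used here. Each deposited value is a signal per gene, a read count over a factor of its library, called normalised count here. The values above 0 in each library were multiples of 1 step (100% whole at a tolerance of 0.01), so reads were recovered as value over step. Reads carry no molecular identifiers, so a floor of 3 reads covers counting error only.

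In the KO and WT table, 22 of 18221 entries carry dates in place of gene names (0.0966% of the values) and 120 are 0 throughout, and all of these were left out. Each table was fitted alone in R 4.3.3 with limma 3.58.1 (lmFit, eBayes with trend) on log2(normalised count + 1), leaving out genes whose mean was under 10 (10401 and 7066 genes stayed), with Benjamini-Hochberg adjustment over all of them and a threshold of 0.05. On this scale the added 1 understates the change of a low gene, whereas a 0 in a single library can widen a difference. Rel, named after its values were seen, averaged 149 in KO libraries, with 1 library at 0, and 147 in WT libraries. Its log2 difference was -1.3. The median over all genes of the KO and WT table was -0.45 by limma, -0.17 by edgeR and -0.14 at a mean of at least 50. edgeR 4.0.16 (quasi-likelihood, on recovered reads) and other pseudocounts, filters, scalings, blocks and left-out libraries were alternatives. Ratios were compared by an exact two-sided permutation test (scipy 1.17.1). The code was tested on simulated data.

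The members and lists were chosen with earlier results of these data known, so nothing here is an independent check of those. Named genes were all members, Apoe, the measured partners and other NADPH oxidases, up to 4 passing genes of each other list by adjusted p, the 3 genes nearest to Cybb and to Cyba, and the 2 most abundant genes of each marker list, and any other is said to be named after its values were seen. Some partners and 1 list are not reported here. The design allowed for raw or normalised counts, and normalised ones were found. No pair of libraries agreed within sampling noise.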

Additional observations from a re-analysis of the deposited data

Results flagged for a closer look

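Of 24 groups of members' values that were tested for a library far from the others, 3 held one, where chance gives about 1 in 20. Cybb had 18.1 normalised counts in WT library 8, against 586 to 804 in the other WT libraries. Cyba had 412 in the same library, against 799 to 996 in the others. Ncf1 had 587 in KO library 3, against 1032 to 1107 in the other KO libraries. No cause was tested for any of these.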

How the results depend on the processing

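In the genotype comparison, the count of members that fell, 1 as reported, was 0 with a pseudocount of 0.5, with a mean of at least 50 and with quantile rescaling, and 0 to 1 over the fits that left out 1 library. The count that rose, also 1, was 0 with libraries scaled to equal microglia markers, 2 without WT library 8 and KO library 1 together, and 0 to 2 over the left-out libraries. Cybb kept its sign in all 22 alternatives (-3.27 to -2.22) and passed in 10 of them, with adjusted p between 5.12e-06 and 0.110 by limma. Marker-based scaling moved the median of all genes to -0.87 and turned Ncf4 to -0.085 and Hvcn1 to -0.11. Leaving out KO library 3 turned Rac2 to 0.14, within a range of -0.36 to 0.14 over left-out libraries. None of these reversals passed, and their cause was not tested.

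After rAPOE, Cybb passed in all 20 alternatives (3.39 to 4.88, adjusted p from 5.01e-05 to 0.0333 by limma or edgeR). The count of members that rose, 1, was 2 with marker-based scaling and 1 in every left-out fit, and 0 fell throughout. Hvcn1 turned to 0.19 with marker-based scaling, and Ncf1 to -0.022 by edgeR and to -0.14 without PBS library 3, within a range of -0.14 to 0.15 over left-out libraries.

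Over all genes, 535 rose and 2061 fell in KO libraries, against 130 and 3692 with marker-based scaling, 488 and 801 at a mean of at least 50, 696 and 1330 with quantile rescaling, 478 and 3191 with no filter, and 498 and 1159 by edgeR. After rAPOE 26 rose and 8 fell, against 368 and 1 with marker-based scaling, 47 and 17 with a pseudocount of 5, 27 and 16 at a mean of at least 50, 35 and 13 with quantile rescaling, 23 and 1 by edgeR and 10 and 1 without both libraries numbered 5.

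The correlation of deviations of libraries of the same number was -0.03 to 0.04 between KO and WT. Between rAPOE and PBS it was -0.01 to 0.05 for libraries 1 to 3, 0.42 for libraries 4 and 0.28 for libraries 5. For rAPOE libraries 4 and 5 the PBS library of the same number was the best match. The best rAPOE match of a PBS library was not computed. Since not every pair was over 0.1, the numbers are not taken as pairs. With the replicate block, over libraries 1 to 4, Cybb had a difference of -3.27 (adjusted p = 0.001 by limma, and 1.21e-04 in the same libraries unblocked, a fit added after seeing the data), Cyba passed (0.38, adjusted p = 0.0364) and Ncf1 did not (0.57, adjusted p = 0.0838). In the injection table the block left 1 member higher and gave 35 genes that rose and 17 that fell.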

Other observations

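The markers of cells that are not phagocytes are given here as values, with no test of their part in any result. In KO libraries the neuron list summed to 0 to 60.5 normalised counts, against 45.1 to 921 in WT libraries, with Map2 at 0 in all KO libraries. The astrocyte list summed to 540 to 1026 in KO libraries and 1336 to 2448 in WT libraries. Of its 2 most abundant genes, Clu fell to 14.6 ± 12.1 in KO libraries, against 660 ± 151 in WT libraries. The other, Slc1a3, did not pass (adjusted p = 0.473 by limma). It averaged 586 ± 159 in KO libraries and 663 ± 115 in WT libraries. The oligodendrocyte list, led by Mbp and Cnp, summed to 92.5 to 282 in KO libraries and 190 to 638 in WT libraries. The endothelial list, led by Pecam1 and Flt1, summed to 202 to 304 in KO libraries and 269 to 526 in WT libraries. The B cell list summed to 252 to 539 in KO libraries and 350 to 772 in WT libraries, most of it Ighm. The list of T and NK cells summed to 0 to 71.7 in KO libraries and 5.42 to 103 in WT libraries.

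In the injection table the neuron list summed to 12.0 to 72.2 in rAPOE libraries and 40.2 to 87.2 in PBS libraries, and the astrocyte list to 126 to 261 in rAPOE libraries and 154 to 207 in PBS libraries. The oligodendrocyte list summed to 53.2 to 126 in rAPOE libraries and 96.1 to 114 in PBS libraries. The endothelial list summed to 44.2 to 98.7 in rAPOE libraries and 47.0 to 67.2 in PBS libraries. The B cell list summed to 51.5 to 192 in rAPOE libraries and 108 to 297 in PBS libraries. Syt1, Slc1a2, Mbp, Kdr and Ighm, each among the most abundant genes of its list, did not pass.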
